A study of Mus musculus with 12 samples.

Results

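The genes described here are 45 genes of the cell cycle and of DNA replication, chosen by symbol with earlier results of these data known. The question put to them was whether *Orc1* differed between ARG1+ and ARG1- microglia alone or together with the rest. All 45 were found among the 55487 genes of the count table, and all 45 passed the filter on low counts. That filter left 16908 genes for testing, and *Orc1* passed it through the ARG1+ libraries alone. By role, 14 belong to replication licensing, 7 to S phase synthesis, 8 to the cyclins, cyclin-dependent kinases and E2F1, and 16 to mitosis.

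The libraries came from microglia of YARG mice, in which YFP is made where the *Arg1* locus is active, at postnatal day 13. There were 12 libraries from the tissue labelled basal forebrain and striatum, 3 for each sex of YFP-positive (ARG1+) and YFP-negative (ARG1-) cells, so that all mice carried the reporter and no group was treated. Per the study's methods, each library pooled tissue of several mice, and cells were gated as CD206-negative and CX3CR1-positive before the YFP gate. The methods describe pooled tissue being sorted by YFP into both populations, so libraries of the populations can share a pool and its litter. The labels do not say which libraries share a litter, and no pairing could be used. The tests treated the libraries as independent, and p-values therefore measure the spread between these libraries only.

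Before a cell copies its DNA, the origin recognition complex (ORC) marks replication origins, and CDC6 and CDT1 load the MCM helicase there, a step called licensing. Cyclins with their kinases then fire the origins and later drive mitosis, and E2F factors switch on many of the genes involved. Microglia divide in the early postnatal brain, and their genes of licensing, synthesis and mitosis are usually read as signs of that division.

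The libraries held 30954399 to 60625170 counts in ARG1- and 28356659 to 46569667 in ARG1+ microglia, and 17846 to 19844 genes had a count in ARG1- libraries against 19018 to 21734 in ARG1+ libraries. *Arg1* messenger RNA had 52 counts in ARG1+ female replicate 15, 2 in ARG1+ female replicate 8 and 0 in the other 10 libraries, so it does not separate the populations in these data. The 10 microglia markers were high throughout, with summed levels of 63118 to 88062 CPM (counts scaled by normalized library size) in ARG1- and 53586 to 65902 CPM in ARG1+ libraries. Among them 1 was higher (*Sall1*) and 6 were lower in ARG1+ cells, taking an adjusted p under 0.05 as the limit. The 14 neural progenitor and oligodendrocyte precursor genes summed to between 9.57 and 27.4 CPM in ARG1- and between 13.8 and 24.1 CPM in ARG1+ libraries, of 10 tested 0 passed (4 were too low to test), and *Egfr* was at or near 0. The 8 border macrophage genes summed to 293 to 512 CPM in ARG1- and 397 to 837 CPM in ARG1+ libraries, 1 of 6 tested (*Stab1*) was higher, and *Cd163* and *Lyve1* were at or near 0. *Mrc1*, which encodes the CD206 used to gate cells out, ranged from 100 to 138 CPM in ARG1- and from 102 to 231 CPM in ARG1+ libraries (log2 fold change 0.26, adjusted p = 0.371), and *Ms4a7* from 0 to 1.39 and from 1.32 to 4.16 CPM (3.01, adjusted p = 0.176). The 8 monocyte genes summed to 5.12 to 14.1 and 3.70 to 7.77 CPM, with *Plac8* lower and *Chil3* at 0. *Fn1* was called higher at values near 0, with 0 CPM in every ARG1- library and 0 to 1.95 CPM in ARG1+ libraries. The 8 erythroid genes summed to 3.69 to 18.5 and 0.178 to 3.39 CPM, with *Hbb-bt* lower and *Slc4a1* at 0. The part of these markers in the results below was not tested.

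Most of the 45 genes differed little between the populations, and *Orc1* was far from the others. In edgeR's quasi-likelihood test with sex as a second term, 2 of the 45 were higher in ARG1+ microglia, *Orc1* and *Cenpe*, against a background of 6.44% of all genes tested. Another 3 were lower, *Mcm5*, *Pcna* and *Cdk1*, against a background of 9.42%. These are 4.44% and 6.67% of the members, both under the background share. The median log2 fold change (ARG1+ minus ARG1-, also given as a log2 difference) was -0.098 over the members and 0.057 over all genes tested. Without *Orc1*, the fold changes lay between -1.03 (*Bub1*, adjusted p = 0.197) and 0.86 (*Cdc6*, adjusted p = 0.264) on the log2 scale. Of these 44 genes, 32 were within 0.5 of 0, against 8984 of all 16908 genes tested. The populations did not overlap in 1 member, *Orc1*, where 10% of all genes tested had no overlap. In sorted bulk libraries, fewer cells in cycle and less RNA per cell cannot be told apart. With DESeq2 size factors in place of TMM, or with no filter on low counts, the split was 2 higher and 1 lower, since *Pcna* and *Cdk1* no longer passed.

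**Figure D1:**
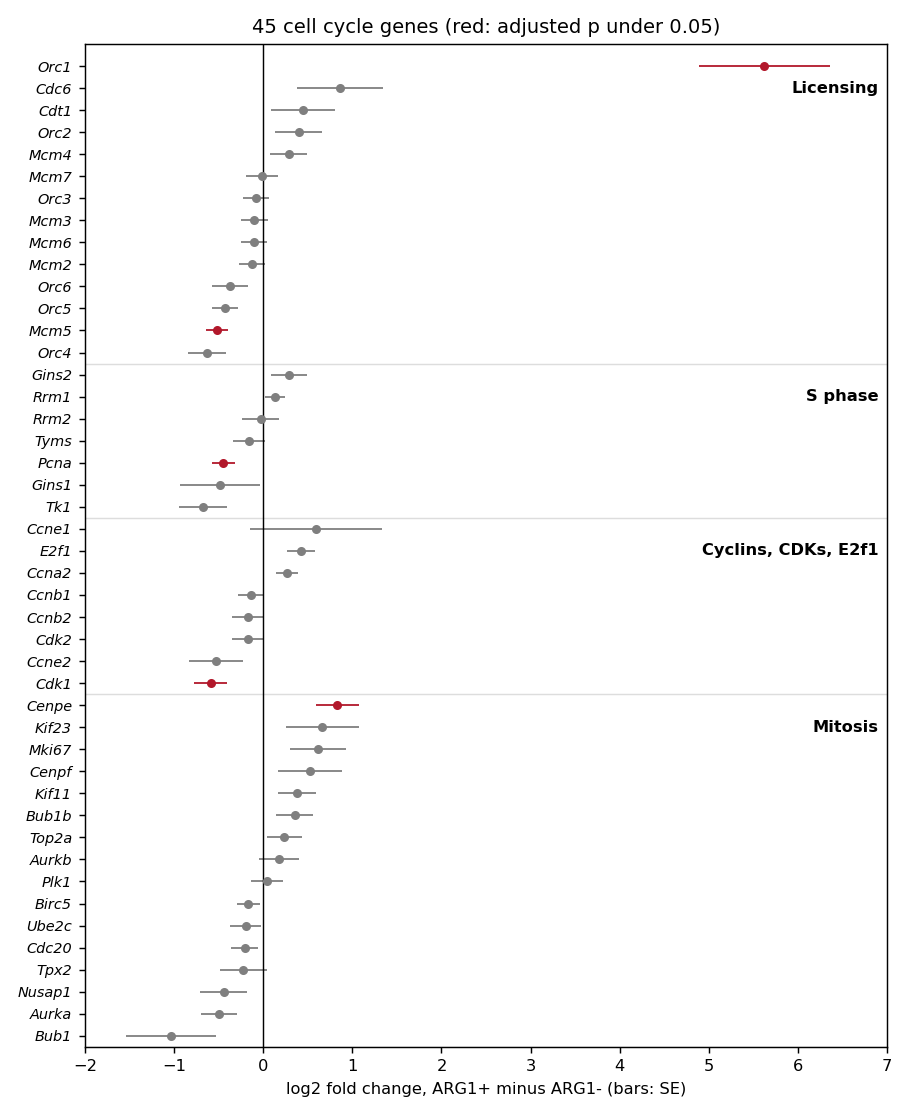
Log2 fold change between ARG1+ and ARG1- microglia for each of the 45 genes, grouped by role and sorted within role, with bars for the standard error and red for an adjusted p under 0.05 (edgeR, 12 libraries). *Orc1* stands at 5.62, and the other 44 genes lie between -1.03 and 0.86.

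*Orc1* (ENSMUSG00000028587, GRCm38 chromosome 4, 108579423 to 108614833, plus strand) encodes the largest subunit of ORC. It had 5, 1 and 4 counts in ARG1- female replicates 1, 2 and 13, and 2, 0 and 5 counts in ARG1- male replicates 5, 6 and 14. It had 199, 109 and 149 counts in ARG1+ female replicates 7, 8 and 15, and 161, 63 and 133 counts in ARG1+ male replicates 11, 12 and 16. Every ARG1+ library lay above every ARG1- library, and 3 of the 6 ARG1- libraries were at or under 3 counts, the limit taken here for reading a gene as detected. The level was 0.0740 ± 0.0627 CPM in ARG1- and 3.87 ± 1.59 CPM in ARG1+ microglia (n = 6 each, ± SD), a log2 difference of 5.62 (SE 0.74, adjusted p = 0.000769). The pooled counts, 17 and 814, gave a ratio of 50.5 relative to the normalized totals, with an exact 95% interval of 31.4 to 87.1. That interval covers counting error only and leaves out the spread between libraries. It takes each read as independent, and it may be too narrow, since the reads carry no molecular identifiers. Of the 16908 genes tested, 176 (1.04%) had a larger log2 fold change. The rank, the lack of overlap and the adjusted p rest on ARG1- values near 0 and on a filter that *Orc1* passed through the ARG1+ libraries alone. The gene was also chosen with earlier results of these data known, so these values describe the difference and are no independent test of it.

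The *Orc1* difference was present in each sex, with log2 fold changes of 5.86 in the female libraries alone (adjusted p = 0.0234) and 5.39 in the male libraries alone. The adjusted p of the male libraries was 0.0820, in a fit that called 1 gene of 15356. Leaving out each of the 12 libraries in turn gave 5.41 to 6.13, with *Orc1* called every time. Even in ARG1+ microglia *Orc1* was a low gene. Its level per length was 1.11 CPM per kilobase of exon there, where the other 5 ORC genes had 6.75 to 10.2, and in ARG1- microglia it was 0.0213, where they had 7.43 to 10.8.

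**Figure D2:**
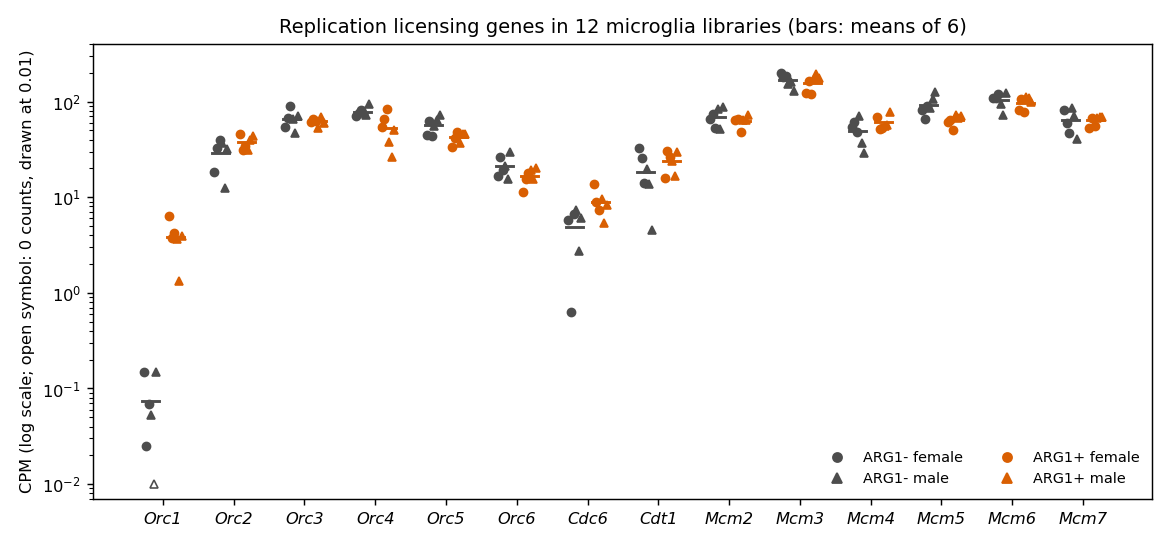
CPM of the 14 licensing genes in each library on a log axis, with grey symbols for ARG1- and orange symbols for ARG1+ microglia, circles for females, triangles for males and bars for the means of 6 libraries. For *Orc1* the ARG1- libraries reach 0.150 CPM and the ARG1+ libraries start at 1.32 CPM, and for the other 13 genes the populations overlap.

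None of the other 5 ORC subunits moved with *Orc1* at an adjusted p under 0.05. The log2 fold change was 0.40 for *Orc2* (adjusted p = 0.352), -0.078 for *Orc3* (0.773) and -0.37 for *Orc6* (0.252). *Orc4* and *Orc5* were nearest to the limit, on the opposite side from *Orc1*. *Orc4* ranged from 70.1 to 93.2 CPM in ARG1- libraries (median 77.5) and from 26.3 to 83.9 in ARG1+ libraries (median 52.1), a log2 difference of -0.63 (SE 0.21, adjusted p = 0.0653). *Orc5* ranged from 43.1 to 71.9 (median 59.0) and from 33.7 to 48.2 CPM (median 43.7), a log2 difference of -0.43 (SE 0.14, adjusted p = 0.0640). Both passed in DESeq2's Wald test, and the populations overlapped in both genes.

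The helicase loaders *Cdc6* and *Cdt1* had fitted changes above 0 that did not pass. *Cdc6* ranged from 0.624 to 7.36 CPM in ARG1- libraries (median 5.93) and from 5.42 to 13.8 in ARG1+ libraries (median 8.56). Its lowest values were 0.624 CPM in ARG1- female replicate 2 and 2.74 CPM in ARG1- male replicate 6. The log2 difference of *Cdc6* was 0.86 (SE 0.48, adjusted p = 0.264). *Cdt1* went from 18.4 ± 9.98 to 23.8 ± 6.42 CPM (adjusted p = 0.456).

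Of the 6 genes of the MCM helicase, *Mcm5* fell. Its values were 65.7 (lowest), 88.2 (median) and 127 CPM (highest) in ARG1- libraries and 50.9, 65.2 and 73.1 CPM in ARG1+ libraries. All 6 ARG1+ libraries lay below the ARG1- median, and ARG1- female replicate 2 alone was within the ARG1+ range. The means were 92.6 ± 21.2 and 64.4 ± 7.83 CPM, a log2 difference of -0.51 (SE 0.12, adjusted p = 0.0139). It passed with each library left out (-0.57 to -0.42), but not in the female (-0.41, adjusted p = 0.203) or male libraries alone (-0.61, adjusted p = 0.128). The other 5 had log2 fold changes from -0.13 (*Mcm2*) to 0.29 (*Mcm4*), with adjusted p of 0.400 or more. *Mcm3* had the highest level per length among the licensing genes, 45 CPM per kilobase in ARG1- and 42.2 in ARG1+ microglia.

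The nearest protein-coding genes on both sides of *Orc1* gave a different picture. *Prpf38a*, a splicing factor gene, lies 86 bases away on the opposite strand, head to head with *Orc1*. It ranged from 33.3 to 63.3 CPM in ARG1- libraries (median 47.4) and from 22.6 to 38.8 in ARG1+ libraries (median 27.9), overlapping in part. It fell, a log2 difference of -0.74 (SE 0.19, adjusted p = 0.0208). *Cc2d1b*, which begins 5106 bases beyond the end of *Orc1*, went from 42.7 ± 5.82 to 55.2 ± 8.22 CPM (log2 difference 0.37, adjusted p = 0.0848). Neither had a difference of the size of that in *Orc1*.

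*Gm12743*, a non-coding gene annotated on the opposite strand (GRCm38 chromosome 4, 108592425 to 108619849), overlaps *Orc1* in 376 of its 3479 exon bases. It rose from 0.244 ± 0.394 to 2.08 ± 0.72 CPM (log2 difference 4.0, adjusted p = 0.0275, SE 1.10). Its counts were 34, 11 and 6 in ARG1- female replicates 1, 2 and 13 and 0, 2 and 0 in ARG1- male replicates 5, 6 and 14. They were 91, 64 and 68 in ARG1+ female replicates 7, 8 and 15 and 119, 41 and 64 in ARG1+ male replicates 11, 12 and 16. ARG1- female replicate 1 reached 1.02 CPM, above the lowest ARG1+ library at 0.861 CPM, so that these populations overlapped where those of *Orc1* did not. The library kit does not mark strand, and reads of the shared stretches cannot be told apart between the 2 genes. Part of *Gm12743* lies within the *Orc1* gene, which ends at 108614833, and reads from *Orc1* introns there cannot be separated by strand either. Whether *Gm12743* rose apart from *Orc1* was not tested.

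**Figure D3:**
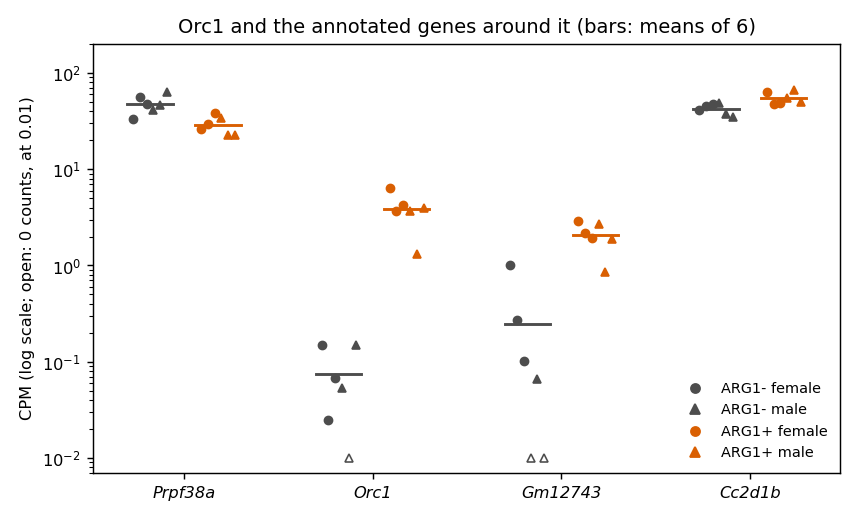
CPM of *Orc1*, its overlapping antisense gene *Gm12743* and the nearest protein-coding gene on each side, by library on a log axis, with bars for the means of 6 libraries and open symbols for 0 counts. *Orc1* and *Gm12743* are higher in ARG1+ microglia, *Prpf38a* is lower, and *Cc2d1b* did not pass the test (adjusted p = 0.0848).

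The promoters of *Orc1* and of 3 other genes that passed are shown to set side by side their matches to the E2F, CCAAT and CHR motifs by which replication and mitosis genes are often grouped. CCAAT is in all 4, CHR in *Cdk1* alone and 1 of the E2F motifs in *Mcm5* alone. The sequences are from RefSeq (GRCm38.p6), on the strand of the gene, and hold at most 250 bases before the RefSeq start. They were trimmed at the exons of other genes and to at most 30 bases of the gene's own exons in GENCODE M21. GENCODE M21 starts 3 of these genes earlier, so the last 30 bases shown for *Orc1* and the last 26 for *Cenpe* and for *Cdk1* lie in its first exon, with the GCGCGAAA of *Orc1*, the CCAAT of *Cenpe* and the last TTTGAA of *Cdk1*. Capitals mark TTTGGCGC, TTTCCCGC or TTTGCCGC (E2F), TTTGAA (CHR), CCAAT, or TTTCGCGC, on either strand. The last, an E2F-type motif, was added after the promoters had been seen, and in *Mcm5* it overlaps an E2F match. Coordinates are chr4:108579337-108579452 for *Orc1*, chr8:75109259-75109508 for *Mcm5*, chr10:69352913-69353162 (minus strand) for *Cdk1* and chr3:135212313-135212562 for *Cenpe*.
Orc1: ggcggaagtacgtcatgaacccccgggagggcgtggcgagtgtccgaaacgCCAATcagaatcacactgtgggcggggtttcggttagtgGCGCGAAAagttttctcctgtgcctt
Mcm5: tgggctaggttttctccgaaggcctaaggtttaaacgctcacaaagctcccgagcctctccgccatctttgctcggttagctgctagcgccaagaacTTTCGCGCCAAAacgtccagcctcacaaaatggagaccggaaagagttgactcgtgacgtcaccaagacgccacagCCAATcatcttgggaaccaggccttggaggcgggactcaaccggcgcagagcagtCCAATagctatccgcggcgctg
Cdk1: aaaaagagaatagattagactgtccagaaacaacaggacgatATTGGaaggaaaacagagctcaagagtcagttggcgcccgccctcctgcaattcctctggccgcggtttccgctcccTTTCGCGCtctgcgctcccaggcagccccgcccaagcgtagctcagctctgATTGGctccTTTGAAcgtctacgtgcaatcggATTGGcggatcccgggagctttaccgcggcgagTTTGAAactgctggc
Cenpe: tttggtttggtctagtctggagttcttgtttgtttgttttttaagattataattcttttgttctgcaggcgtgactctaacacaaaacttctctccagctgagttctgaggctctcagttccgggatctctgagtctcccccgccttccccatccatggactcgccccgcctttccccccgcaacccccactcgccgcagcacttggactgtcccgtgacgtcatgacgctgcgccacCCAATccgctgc
The trimmed window of *Pcna*, the remaining gene that passed, holds none of these motifs, but its untrimmed window of 250 bases holds CCAAT. The shares of promoters given below were taken over untrimmed windows. *Orc1*, *Mcm5* and *Cdk1* share TTTCGCGC, although *Orc1* rose and the other two fell. That motif was picked from these promoters, so its presence in them is no result, and it occurred in 0.256% of all 32851 promoters. Promoters were found for 38 members, 17 in licensing, 5 in S phase, 6 in the cyclin and kinase genes and 14 in mitosis, counting several for some genes. The 3 E2F motifs were in 29.4%, 0%, 16.7% and 0% of these in turn and in 1.63% of all promoters. CCAAT was in 58.8%, 60%, 66.7% and 85.7%, and in 33.8% of all. CHR was in 5.88%, 0%, 33.3% and 35.7%, and in 16% of all. These matches describe the letters in the windows only.

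Among the 7 S phase genes, *Pcna* fell and the other 6 did not pass. *Pcna*, the sliding clamp of the DNA polymerases, had 47.9 (lowest), 58.1 (median) and 66.2 CPM (highest) in ARG1- libraries and 33.1, 43.9 and 49.3 CPM in ARG1+ libraries. The populations overlapped by 1 library on each side, since ARG1- male replicate 5 was below ARG1+ male replicate 11. The means were 57.7 ± 6.31 and 42.4 ± 6.47 CPM, a log2 difference of -0.44 (SE 0.13, adjusted p = 0.0371). This call was lost when any library but ARG1- male replicate 5 or ARG1+ male replicate 11 was left out (adjusted p up to 0.118, log2 fold changes -0.46 to -0.36) and in each sex alone (0.153 in females and 0.343 in males).

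*Tk1*, thymidine kinase, was the next by p, at 35.6 ± 13.8 and 22.3 ± 6.04 CPM (log2 difference -0.68, SE 0.27, adjusted p = 0.111). The ribonucleotide reductase genes *Rrm1* and *Rrm2*, which supply deoxynucleotides, had log2 fold changes of 0.13 and -0.027. *Rrm2* had the highest level per length of the S phase genes, 26.2 CPM per kilobase in ARG1- and 25.7 in ARG1+ microglia. *Tyms*, thymidylate synthase, had -0.16, and *Gins1* and *Gins2*, subunits of the replicative helicase complex, had -0.48 and 0.29. Adjusted p for these 5 lay between 0.374 and 0.950.

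Among the 8 cyclin, kinase and E2F genes, *Cdk1* fell and 7 did not pass. *Cdk1*, the kinase that drives entry into mitosis, had 57.7 (lowest), 87.5 (median) and 116 CPM (highest) in ARG1- libraries and 39.6, 54.7 and 71.1 CPM in ARG1+ libraries. All 6 ARG1+ libraries lay below the ARG1- median, while the populations overlapped through ARG1- female replicate 1 and ARG1- male replicate 6. The log2 difference was -0.59 (SE 0.19, adjusted p = 0.0491). It passed in 3 of the 12 fits without 1 library, those without ARG1- female replicate 1, ARG1- male replicate 6 or ARG1+ male replicate 11, and adjusted p reached 0.129 in the others (log2 fold changes -0.60 to -0.44).

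Its partners *Ccnb1* and *Ccnb2*, the B-type cyclins, had log2 fold changes of -0.13 (adjusted p = 0.595) and -0.17 (0.568), and *Ccnb2* had the highest level per length of this group, 37.4 CPM per kilobase in ARG1- and 33.5 in ARG1+ microglia. *E2f1*, a transcription factor for replication genes, went from 19.9 ± 3.26 to 26.8 ± 4.16 CPM (log2 difference 0.43, adjusted p = 0.0933), and the S phase cyclin *Ccna2* from 69.2 ± 16.2 to 83.2 ± 13.6 CPM (0.27, adjusted p = 0.159). Both passed in DESeq2's test. The E-type cyclins had log2 fold changes of 0.59 (*Ccne1*, SE 0.74) and -0.53 (*Ccne2*, SE 0.30), and *Ccne1* ranged from 0 to 13.6 CPM in ARG1- libraries. *Cdk2* had -0.17 (adjusted p = 0.564).

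Of the 16 mitosis genes, *Cenpe* rose and 15 did not pass. *Cenpe* encodes a kinetochore motor protein that moves chromosomes to the spindle equator. It had 10.1 (lowest), 24.3 (median) and 33.7 CPM (highest) in ARG1- libraries and 31.9, 39.5 and 56.0 CPM in ARG1+ libraries. Only ARG1- male replicate 5 reached into the ARG1+ range. The means were 22.8 ± 7.72 and 40.6 ± 8.32 CPM, a log2 difference of 0.83 (SE 0.24, adjusted p = 0.0351). The call was lost in 8 of the 12 fits without 1 library (adjusted p up to 0.0757, log2 fold changes 0.75 to 0.87), and it was kept without ARG1- male replicate 5, ARG1- male replicate 14, ARG1+ female replicate 8 or ARG1+ male replicate 11. It was also lost in each sex alone, at 0.84 in both.

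The proliferation markers *Mki67* and *Top2a* overlapped between the populations and did not pass. *Mki67* had 26.9 (lowest), 55.3 (median) and 105 CPM (highest) in ARG1- libraries and 52.9, 94.3 and 130 CPM in ARG1+ libraries, with wide overlap and a log2 difference of 0.61 (SE 0.31, adjusted p = 0.219). *Top2a*, the topoisomerase that untangles chromosomes, had 77.0, 98.8 and 143 CPM against 103, 116 and 188 CPM, a log2 difference of 0.24 (SE 0.20, adjusted p = 0.470). *Pcna*, often used as a marker of the same kind, fell, as given above.

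The spindle checkpoint genes went both ways, with *Bub1* at 38.5 ± 25.0 and 18.9 ± 7.19 CPM (log2 difference -1.03, SE 0.50) and *Bub1b* at 53.5 ± 17.7 and 66.9 ± 6.91 CPM (0.35, adjusted p = 0.281). The mitotic kinases *Aurka*, *Aurkb* and *Plk1* had -0.50 (adjusted p = 0.129), 0.18 and 0.044. Among the spindle motors and the kinetochore protein gene *Cenpf*, log2 fold changes were 0.38 (*Kif11*), 0.66 (*Kif23*) and 0.52 (*Cenpf*), with adjusted p of 0.265, 0.317 and 0.376. *Birc5*, of the chromosomal passenger complex, *Tpx2* and *Nusap1*, of spindle assembly, and *Ube2c* and *Cdc20*, which help degrade mitotic proteins, had log2 values from -0.44 to -0.16. *Cdc20* had the highest level per length of the mitosis genes, 37.7 CPM per kilobase in ARG1- and 32.7 in ARG1+ microglia.

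**Figure D4:**
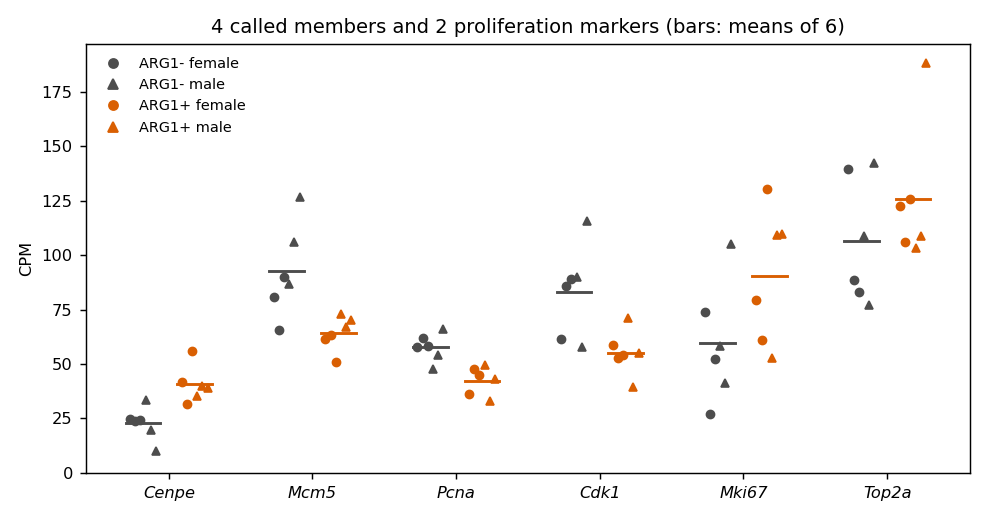
CPM by library of the 4 genes other than *Orc1* that passed the test and of the proliferation markers *Mki67* and *Top2a*, with bars for the means of 6 libraries. *Cenpe* is higher and *Mcm5*, *Pcna* and *Cdk1* are lower in ARG1+ microglia, each with overlap, and *Mki67* (adjusted p = 0.219) and *Top2a* (0.470) did not pass.

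Summed over roles, the populations overlapped. All 45 genes summed to 2262 ± 271 CPM in ARG1- and 2194 ± 163 CPM in ARG1+ microglia. The licensing genes summed to 824 ± 48.2 and 756 ± 54.1 CPM, the S phase genes to 324 ± 45.9 and 302 ± 37.3 CPM, the cyclin and kinase genes to 368 ± 36.0 and 340 ± 34.8 CPM, and the mitosis genes to 746 ± 160 and 797 ± 95.8 CPM.

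ARG1- libraries varied more than ARG1+ libraries in most members, as in most genes. The SD of log2 CPM over libraries was larger in ARG1- than in ARG1+ microglia for 35 of the 45 genes, against a background of 71.6% of all genes tested. By role this held for 11 of 14 licensing genes (median SD 0.35 in ARG1- and 0.24 in ARG1+ libraries on the log2 scale), 3 of 7 S phase genes (0.32 and 0.35), 6 of 8 cyclin and kinase genes (0.30 and 0.31) and 15 of 16 mitosis genes (0.57 and 0.28). ARG1- male replicate 6 was the lowest ARG1- library in 21 of the 45 genes and ARG1- male replicate 14 the highest in 20, and among ARG1+ libraries male replicate 16 was the highest in 17. Without ARG1- male replicate 6, 1 member was called higher (*Orc1*) and 4 lower (*Mcm5*, *Cdk1*, *Bub1* and *Aurka*). Without ARG1- male replicate 14, 2 were called higher (*Orc1* and *Cenpe*) and 1 lower (*Mcm5*).

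**Figure D5:**
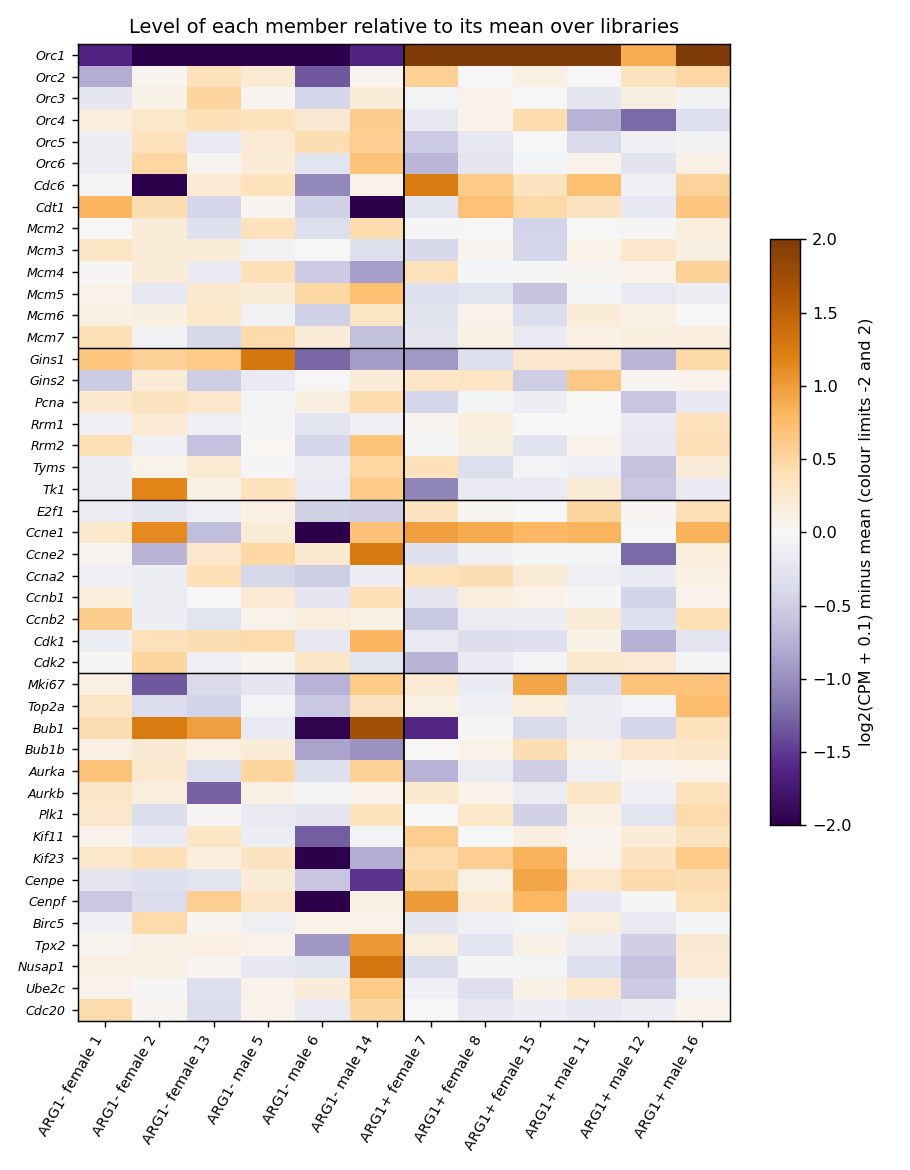
Level of each of the 45 genes in each library as log2(CPM + 0.1) minus the mean of the gene over the 12 libraries, with purple below and orange above the mean and colour limits at -2 and 2. *Orc1* is the only row split cleanly between the 6 ARG1- and the 6 ARG1+ libraries, and ARG1- male replicates 6 and 14 hold many of the extreme values.

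Within ARG1+ microglia, no relation of *Orc1* to the other genes from library to library passed, with 6 libraries. Its correlation with the summed licensing and S phase genes was r = -0.21 (exact permutation p = 0.751, rho = -0.37, p = 0.497) and r = -0.35 without the 2 libraries farthest from the median. With the summed mitosis genes it was r = 0.27 (exact permutation p = 0.603, rho = 0.60, p = 0.242) and r = 0.65 without the 2 farthest. The licensing and S phase sum and the mitosis sum correlated in ARG1- libraries (r = 0.85, exact permutation p = 0.0403, rho = 0.77, p = 0.103). Without the 2 farthest libraries this r was 0.022, so the relation rests on those libraries. In ARG1+ libraries it was r = 0.27 (exact permutation p = 0.581, rho = -0.086, p = 0.919) and r = -0.92 without the 2 farthest. After adjustment over the 4 relations, the smallest p was 0.161. The sums share each library's normalization.

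No member differed between females and males at an adjusted p under 0.05 in edgeR's test. In ARG1- microglia 0 of 45 passed, against 0.0946% of all genes, and 4 had an unadjusted p under 0.05, against 10%. These were *Mcm3* and *Ccna2* (female minus male 0.35 and 0.43 on the log2 scale), *Bub1b* (0.61) and *Mcm5* (-0.43). In ARG1+ microglia 0 passed, against 0.0355%, and 2 had an unadjusted p under 0.05, *Orc4* (0.84) and *Mcm3* (-0.41), against 3.12%. For the difference between the populations in the sex effect 0 passed, against 0% of all genes, and *Orc4* and *Mcm3* had an unadjusted p under 0.05, against 9.32%. These genes were named after their values were seen. DESeq2 called 0 members for sex in either population and 1, *Mcm3*, for the difference. Without ARG1- male replicate 5, *Bub1b* was called for sex in ARG1- microglia. *Orc1* had sex differences of 0.22 in ARG1- and 0.68 in ARG1+ microglia, with adjusted p of 0.996 and 1.

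The 204 other cell cycle genes examined, of which 203 could be tested, gave 4 higher and 12 lower, or 1.97% and 5.91%, against 6.44% and 9.42% of all genes tested, with a median log2 fold change of 0.0048 against 0.057. The same background applies to each list that follows. Among 51 further genes of the replication machinery, 0 were higher and 4 were lower, with *Rfc2*, a clamp loader subunit, falling from 169 ± 20.4 to 115 ± 13.9 CPM (-0.55, adjusted p = 0.00734) and *Gins4* from 42.3 ± 8.25 to 27.4 ± 3.84 CPM (-0.63, adjusted p = 0.00851). Among 37 further G1 cyclins, kinases, pocket proteins and E2F and DREAM genes, 1 was higher and 3 were lower. *Cdk6*, a G1 kinase, rose from 39.3 ± 8.85 to 61.1 ± 6.28 CPM (0.65, adjusted p = 0.0138). *Rbbp4*, a histone-binding subunit of DREAM and other complexes, fell from 416 ± 40.2 to 208 ± 41.0 CPM (-1.01, adjusted p = 0.000633), and *Cdk7*, the kinase that activates other CDKs, fell from 58.5 ± 10.4 to 32.9 ± 3.63 CPM (-0.84, adjusted p = 0.00218).

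Of 24 tested CDK inhibitor and p53 arrest genes, *Sesn1*, a stress-induced p53 target, fell from 316 ± 17.6 to 229 ± 27.4 CPM (-0.46, adjusted p = 0.00527) and 0 rose. Among 59 further mitosis genes, 1 rose and 4 fell. *Aspm*, a spindle pole protein gene, rose from 10.7 ± 8.10 to 28 ± 13.9 CPM (1.66, SE 0.45, adjusted p = 0.0269), the chromatin protein gene *Hmgb2* fell from 88.7 ± 18.7 to 46.4 ± 9.50 CPM (-0.93, adjusted p = 0.00397), and the histone variant gene *H2afz* fell from 173 ± 20.8 to 101 ± 21.5 CPM (-0.77, adjusted p = 0.00475). Among 32 checkpoint and repair genes 2 rose and 0 fell, *Usp1*, a deubiquitinase of DNA repair, from 21.3 ± 6.10 to 36.1 ± 4.64 CPM (0.75, adjusted p = 0.0216) and *Palb2*, a partner of BRCA2, from 23.6 ± 8.37 to 37.8 ± 5.50 CPM (0.69, adjusted p = 0.0450).

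Long genes tended to have higher fold changes in these data. Over the 12664 protein-coding genes tested, exon length and log2 fold change had a Spearman correlation of 0.38 across genes, with medians of 0.22 for the longer genes and -0.21 for the shorter genes, and over the 45 members it was 0.23. Genes are not independent replicates, and these values are a description. With each library's trend on exon length removed, an alternative chosen after seeing the data, *Orc1* had a log2 difference of 5.64 (adjusted p = 0.000726) and *Mcm5* of -0.52 (0.0158). *Cenpe* (0.68, 0.0784), *Pcna* (-0.36, 0.0565) and *Cdk1* (-0.63, 0.0515) then missed the limit, and *Orc4* and *Orc5* passed it as lower.

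Exons of 16 members overlap those of 20 other genes, so that their counts are less certain without strand. Of the members called, only *Orc1* is among them. Apart from *Gm12743*, *Mbd5*, which shares 136 exon bases with *Orc4*, rose (1.10, adjusted p = 0.0487), and *Vps35*, which shares 171 bases with *Orc6*, fell (-0.41, adjusted p = 0.0207), as did *Cops6*, which shares 64 bases with *Mcm7* (-0.63, adjusted p = 0.00410). The longest overlap is that of *Gins2* with *Gse1* (0.68, adjusted p = 0.0573), 2758 of 4097 exon bases. The other overlapping genes, *Nif3l1* and *Acvr2a* at ORC genes, the pseudogene *Gm15421* in *Orc5*, *Ap4m1* at *Mcm7*, *Afmid*, *Ints8*, *Exosc9*, *Pmel*, *Gm44985*, *Oip5* and *Elovl1*, had adjusted p from 0.229 to 0.983, and *Mir25*, *Mir93*, *Gm23451* and *Tnnc2* had too few counts to test.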

How the data were processed

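RNA-seq was made from 12 libraries of sorted microglia, 6 for each population and 3 for each sex within it. Per the labels and the study's methods, the authors prepared complementary DNA with SMART-Seq v4 and libraries with Nextera XT, aligned single-end reads with STAR 2.6.1d to GRCm38 and counted reads on genes with featureCounts 1.5.1. The deposited values are raw counts per gene without normalization, with 0 columns left unused. The annotation release and the strand setting are not given in the sources used here. Total counts per library, 28356659 to 60625170, limit low genes such as *Orc1*, and 3 counts were taken as the limit of detection in a library.

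From these counts, low genes were removed by filterByExpr with the 4 groups, and counts were normalized by TMM and tested with the quasi-likelihood test of edgeR 4.0.16 in R 4.3.3, with Benjamini–Hochberg adjustment over all 16908 genes and a limit of 0.05. ARG1 status was tested with sex as a term, and sex and its difference between populations in a model of 4 group means. No term for a shared pool or litter was used. Standard errors were derived from the fold change and the F statistic. Correlations used exact, two-sided permutation tests with scipy 1.17.1. Symbols and exons came from GENCODE M21 (55227 identifiers matched), and promoters from RefSeq. Promoters were found for 38 of the 45 members.

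The 45 members and the other gene lists were chosen with earlier results of these data known. Named in full are *Orc1*, members that passed, *Mki67*, *Top2a* and *Pcna*, and in each role the member of highest level per length and of smallest p. From each other list the 2 genes of smallest p in each direction are named. Alternatives were DESeq2 size factors, no filter, at least 10 counts in every library, the Wald test of DESeq2 1.42.0 without a prior, ARG1 status alone, a term for libraries numbered 13 to 16, each sex alone, counts thinned to the smallest total, each library left out, and, added after seeing the data, removal of each library's trend on exon length (mgcv 1.9.3). Single values of 3 marker genes are not reported here.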

Additional observations from a re-analysis of the deposited data

Results flagged for a closer look

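Each member was searched in each population for a library that stood apart from the other 5 by Dixon's criterion, and 7 of 90 groups had one, where chance gives about 1 in 20, or 4.5. In ARG1- microglia, *Aurkb* was 17.6 CPM in female replicate 13 (next lowest 41.5), *Birc5* was 50.4 CPM in female replicate 2 (next highest 39.3), and *Tpx2* and *Nusap1* were 99.9 and 106 CPM in male replicate 14 (next highest 53.3 and 46.5). In ARG1+ microglia, *Mcm2* was 48.0 CPM in female replicate 15 (next lowest 63.9), *Ccne1* was 6.11 CPM in male replicate 12 (next lowest 10.7), and *Top2a* was 188 CPM in male replicate 16 (next highest 126).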

How the results depend on the processing

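*Orc1* kept its direction in each alternative that could test it and passed in all but the male libraries alone. With at least 10 counts in every library it could not be tested. Members called higher were 2 as reported, 1 with at least 10 counts in every library, 4 with DESeq2's test, 1 in females alone, 0 in males alone, 1 with the length trend removed, and 1 to 2 with each library left out. Members called lower were 3 as reported, 1 with DESeq2 size factors, 1 with no filter and 2 with at least 10 counts in every library. They were 5 with DESeq2's test, 2 with thinned counts, 0 in each sex alone, and 1 to 4 with each library left out. Of the other cell cycle genes, 4 were called higher as reported, 11 with at least 10 counts, 15 with DESeq2's test and 6 with thinned counts. Higher calls were 5 with DESeq2 size factors, with ARG1 status alone and with the term for libraries 13 to 16. They were 2 in females alone, 0 in males alone, 1 with the length trend removed, and 2 to 7 with each library left out. Lower calls were 12 as reported, 9 with no filter, 14 with at least 10 counts and 17 with DESeq2's test. Those calls were 13 with ARG1 status alone, with thinned counts and with the length trend removed. They were 4 in females alone, 0 in males alone, and 10 to 13 with each library left out. Over all genes, DESeq2's test called 4131 genes, the female libraries alone 986 and the male libraries alone 1, against 2682. Sex within ARG1- microglia called 0 to 1 members with each library left out, and its difference between populations 1 with DESeq2's test. The cause of these changes was not tested, and each sex alone held fewer libraries. All genes had a median log2 fold change of 0.119 in DESeq2's test and 0.107 with no filter, against 0.0567.

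Signs turned in 12 members, at adjusted p of 0.323 or more. Their log2 fold changes as reported lay between -0.22 (*Tpx2*) and 0.13 (*Rrm1*). *Mcm7* (-0.017) was 0.021 with size factors, 0.015 with no filter, 0.020 with at least 10 counts, 0.027 with DESeq2's test, 0.022 with the term for libraries 13 to 16 and 0.061 in males. *Rrm2* (-0.027) was 0.0082, 0.00070, 0.0054 and 0.015 in the first 4 of these, 0.016 in females and 0.033 with the length trend removed, where *Rrm1* was -0.095. In males *Mcm3* was 0.28, *Mcm6* 0.13, *Ccnb2* 0.021 and *Cdk2* 0.098. In females *Ccnb1* was 0.016, *Plk1* -0.029 and *Ube2c* 0.0083. With each library left out, *Orc3* was -0.16 to 0.025, *Mcm3* -0.16 to 0.0021, *Mcm7* -0.11 to 0.096, *Rrm2* -0.12 to 0.15, *Plk1* -0.027 to 0.15 and *Tpx2* -0.37 to 0.090.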
